A study of Penicillium oxalicum with 18 samples.

Results

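The response of Penicillium oxalicum mycelium to bran and cellulose was compared between a hap5 deletion strain (Δhap5) and a hap3 deletion strain (Δhap3). Of the 18 libraries of the series, 12 entered the comparison: 3 of Δhap3 on glucose, 3 of Δhap3 on bran and cellulose, and the same for Δhap5. Mycelium of every group was precultured for 24 h at 30 °C on 2% glucose, then moved for 24 h to a modified Mendal's medium. The carbon source there was either 2% glucose or a mix of 1% bran with 1% microcrystalline cellulose. The other 6 libraries came from wild type strain 114-2 on the same media and served as a reference. They also entered the gene filter and the estimate of spread. The labels name 1 deletion per strain and do not give the parent of the deletion strains, the number of transformants, or whether the 3 libraries of a group were separate cultures. P-values therefore measure only how far these libraries spread, and that spread may be technical.

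Penicillium oxalicum is a filamentous fungus that secretes enzymes that degrade plant cell walls. Hap3 and Hap5 are core subunits of the Hap complex, which binds CCAAT sequences in promoters and is also called the CCAAT-binding complex. In Saccharomyces cerevisiae and in Aspergillus nidulans the core subunits bind DNA only as an assembled complex, so that each is needed for binding. The comparison addresses whether strains that lack different subunits change their transcripts alike when the carbon source changes.

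The table lists FPKM (fragment counts scaled to gene length and library size) for 9277 genes, by locus tag and with no gene names or functions. The carbon response of a strain is its mean on bran and cellulose minus its mean on glucose, on the log2(FPKM + 1) scale, and it is positive where a transcript rose on bran and cellulose. The difference in response is that of Δhap5 minus that of Δhap3. It equals the strain difference on bran and cellulose minus the strain difference on glucose. The test covered the 8681 genes that reached 1 FPKM in 3 or more of the 18 libraries. A gene was called at a limma adjusted p under 0.05 and an absolute log2 value of at least 1. The added constant of 1 understates changes of low genes. These are bulk samples, in which fewer cells of a kind and less RNA per cell cannot be told apart.

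The 12 deletion libraries summed to between 989096 and 1202683 FPKM and listed between 598 and 827 genes at 0; the sequencing depth is unknown. Replicate 2 of Δhap3 on glucose stood apart from the other libraries. It had the highest total and the lowest median log2 level (4.647, against 4.895 to 5.09 in the other 11), and it correlated with its group at 0.9526 and 0.9532 across genes. The median replicate SD over genes was 0.221 log2 units in Δhap3 on glucose and 0.099, 0.122 and 0.106 in Δhap3 on bran and cellulose and Δhap5 on glucose and on bran and cellulose. The main counts of calls are given with and without this library. The deleted genes could not be looked up by name. PDE_02832 was the 1 gene above 2 FPKM elsewhere that was at least 4 times lower in every Δhap3 library (8.93 to 12.18 FPKM) than in every other library (134.38 to 256.36 FPKM). PDE_01016 was so in Δhap5 (1.43 to 2.22 FPKM, against 118.83 to 226.15 FPKM). Both were found by their values.

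The deletion strains shared most of their carbon response and differed at a minority of genes. In Δhap3 18.6% of tested genes rose on bran and cellulose and 13.6% fell (32.2% in all). In Δhap5 13.8% rose and 11.1% fell (24.9% in all). Transcripts of 1084 genes rose in both strains and those of 774 fell in both. The difference in response was called at 408 of 8681 genes (4.7% of those tested). It was positive at 130 (1.5%), where Δhap5 rose more or fell less, and negative at 278 (3.2%), where it rose less or fell more. Without replicate 2 of Δhap3 on glucose it was called at 121 and 257 genes, and 318 of the 408 calls were kept. A fit on the 12 deletion libraries alone called 115 and 210 genes. Genes called between media without replicate 2 of Δhap3 on glucose numbered 2763 in Δhap3 and 2192 in Δhap5, against 2794 and 2159 with it.

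The excess of negative calls depended on scaling. Positive calls made up 31.9% in the deposited values, 46.5% after median-of-ratios scaling (187 positive, 215 negative) and 48.4% after quantile normalization (185 positive, 197 negative). The median difference over all tested genes was -0.122, -0.006 and 0.012 in these fits. Of the calls themselves, 125 of the 130 positive and 179 of the 278 negative calls were kept under both scalings. Calls kept in all 12 fits that left out a library, taken jointly, were 84 positive and 152 negative. Both conditions were met by 221 of the 408 genes.

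**Figure D1:**
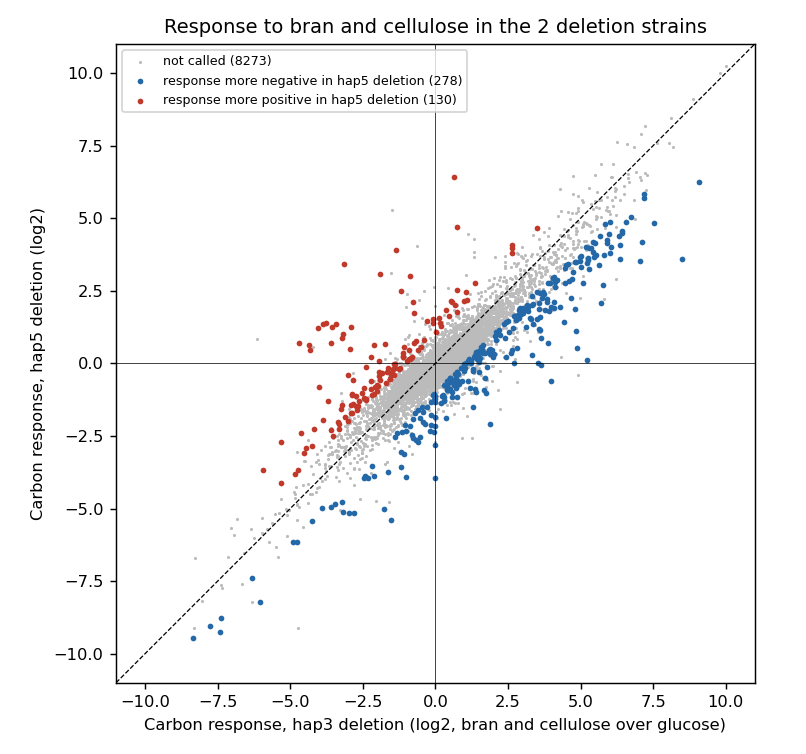
Carbon response (log2, bran and cellulose over glucose) of 8681 tested genes in Δhap3 (x axis) and Δhap5 (y axis), with genes called in the difference coloured and the dashed line marking equal responses. Most genes lie near the line, the 278 blue genes lie below it and the 130 red genes above it.

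Across genes the carbon responses of the strains correlated at 0.9 (Pearson, 8681 genes, given as a description since genes are not independent replicates). The strains share no libraries, but the genes of a library share its scaling. The SD of the response across genes was 1.543 log2 units in Δhap3 and 1.386 in Δhap5. For 5863 genes (67.5%) the 95% interval of the difference lay between -1 and 1, so a difference of a log2 value of 1 was outside the interval. A further 2410 genes (27.8%) were neither called nor within that limit, and nothing is shown for them either way. Of the genes that rose in both strains, 535 of 1084 (49.4%) had an interval within the limit, and of those that fell in both, 431 of 774 (55.7%).

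Some of the strongest carbon responses of the series were close to equal in the deletion strains. PDE_09419 was at 0.76, 1.3 and 2.07 FPKM on glucose and 2106.6, 2225.11 and 1912.85 FPKM on bran and cellulose in Δhap3. In Δhap5 it was at 1.4, 0.6 and 0.76 FPKM, and 2187.87, 1860.29 and 1766.87 FPKM. The media did not overlap and the strains did, with a difference in response of 0.19 (95% interval -0.55 to 0.93). PDE_01388 rose by 8.04 in Δhap3 and 7.59 in Δhap5, a difference of -0.45 (interval -0.97 to 0.06). It was at 1.24 to 2.14 FPKM on glucose in the deletion strains. Both genes were thus near the added constant of 1 on glucose, and the fitted sizes of their rises and differences depend on it.

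Some falling transcripts had responses as close. PDE_00369 went from 1075.04, 725.79 and 1080.22 FPKM on glucose to 3.12, 2.26 and 2.56 FPKM in Δhap3. In Δhap5 it went from 1797.78, 1390.57 and 1635.14 FPKM to 4.02, 5.8 and 3.84 FPKM. Its levels were higher in Δhap5 on both media, and its difference in response was -0.16 (interval -0.68 to 0.36). PDE_06095 fell by 7.39 in Δhap3 and fell by 7.64 in Δhap5, a difference of -0.24 (interval -0.86 to 0.37). Its levels on bran and cellulose were 0.09 to 0.31 FPKM, so both falls depend on the added constant, and with a constant of 0.1 the difference was 0.32.

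The response was more often the smaller one in Δhap5, both over all genes and among those called. It was closer to 0 in Δhap5 than in Δhap3 at 64.3% of all tested genes. Among the 408 called genes the share was near that, at 285 (69.9%), so nothing particular to the called genes is read from it. After median-of-ratios scaling it was 70.1% of called and 65.6% of all genes, after quantile normalization 67.3% and 63.2%, and without replicate 2 of Δhap3 on glucose 68.8% and 65.0%. Among the 278 negative genes, 113 rose in both strains but less in Δhap5, and 61 were called as rising in Δhap3 alone. Another 33 fell in both and more in Δhap5, 40 were called as falling in Δhap5 alone, and 28 were called in neither strain.

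Among the 130 positive genes, 38 fell in both strains but less in Δhap5, and 49 were called as falling in Δhap3 alone. In 22 the rise was called in Δhap5 alone, 7 rose in both and more in Δhap5, and 11 were called in neither. Of the 1858 genes called in the same direction in both strains, 191 (10.3%) were called in the difference. Most genes called in 1 strain alone were not called in the difference: of 930 genes called in Δhap3 only, 110 were called in the difference, and of 295 called in Δhap5 only, 62 were.

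Responses in opposite directions were rare. Only 6 genes had carbon responses called with opposite signs, and all 6 were called in the difference. PDE_08892 was at 317.26, 282.94 and 219.7 FPKM on glucose and 16.09, 36.08 and 24.64 FPKM on bran and cellulose in Δhap3. In Δhap5 it was at 6.27, 9.07 and 6.84 FPKM on glucose and 26.23, 20.8 and 15.27 FPKM on bran and cellulose. It fell by 3.42 in Δhap3 and rose by 1.36 in Δhap5, a difference of 4.78 (SE 0.38, limma adjusted p = 6.33e-06). During growth on bran and cellulose the strains overlapped, and on glucose every Δhap3 library was above every Δhap5 library.

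PDE_08014 showed the mirror pattern, with glucose levels high in Δhap5. It was at 10.77, 21.89 and 8.65 FPKM on glucose and 48.79, 38.14 and 68.1 FPKM on bran and cellulose in Δhap3. In Δhap5 it was at 243.25, 228.57 and 258.38 FPKM, and 44.19, 48.77 and 81.72 FPKM. It rose by 1.90 in Δhap3 and fell by 2.10 in Δhap5, a difference of -3.99 (SE 0.43, limma adjusted p = 7.47e-05). PDE_05239 rose by 1.76 in Δhap3 and fell by 1.03 in Δhap5. Its 3 Δhap5 libraries on glucose (20.55 to 23.94 FPKM) lay above the 3 Δhap3 libraries (2.44 to 7.14 FPKM), and the difference was -2.79 (SE 0.40, limma adjusted p = 0.000556).

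More genes were called between the strains on glucose than on bran and cellulose. On glucose 348 genes (4.01%) were called between the strains, 258 higher (2.97%) and 90 lower (1.04%) in Δhap5. In the bran and cellulose libraries 41 were called (0.472%), 24 higher (0.276%) and 17 lower (0.196%). Of the 348 glucose calls 246 were also called in the difference in response, and of the 41 bran and cellulose calls 26 were. The count on bran and cellulose was 25 without replicate 1 and 24 without replicate 2 of Δhap3 on that medium, and 101 in a fit with library weights. With those weights 377 genes were called on glucose. Without replicate 2 of Δhap3 on glucose 318 were called on glucose and 47 on bran and cellulose. The fit used 1 spread per gene for all groups. The median replicate SD was 0.221 in Δhap3 and 0.122 in Δhap5 on glucose, against 0.099 and 0.106 on bran and cellulose. P-values may therefore be too small on glucose and too large on bran and cellulose. How much of the gap between the counts comes from this was not tested.

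Sorted by medium, 244 of the 408 genes were called between the strains on glucose only, 24 on bran and cellulose only, 2 on both, and 138 on neither. The absolute strain difference was larger on glucose than on bran and cellulose at 350 of the 408 (85.8%), against 66.5% of all tested genes. Under the scalings it was 83.8% and 81.9% of called genes, against 65.4% and 62.9% of all, and without replicate 2 of Δhap3 on glucose 83.9% against 59.9%. Over all tested genes the SD of the strain difference was 0.569 on glucose and 0.337 on bran and cellulose, and 0.54 on glucose without that library. The spread between replicates was also larger on glucose, as given above, and its part in these SDs was not tested. At 282 of the 408 genes (69.1%) the 95% interval of the strain difference on bran and cellulose lay within -1 to 1, against 88.2% of all tested genes. On glucose it did at 51 of the 408, against 81.4% of all. The genes were called on the strain difference on bran and cellulose minus that on glucose, and the latter spread more widely over all genes. The contrasts of called with all genes in this paragraph are therefore in part fixed by the selection and test nothing.

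**Figure D2:**
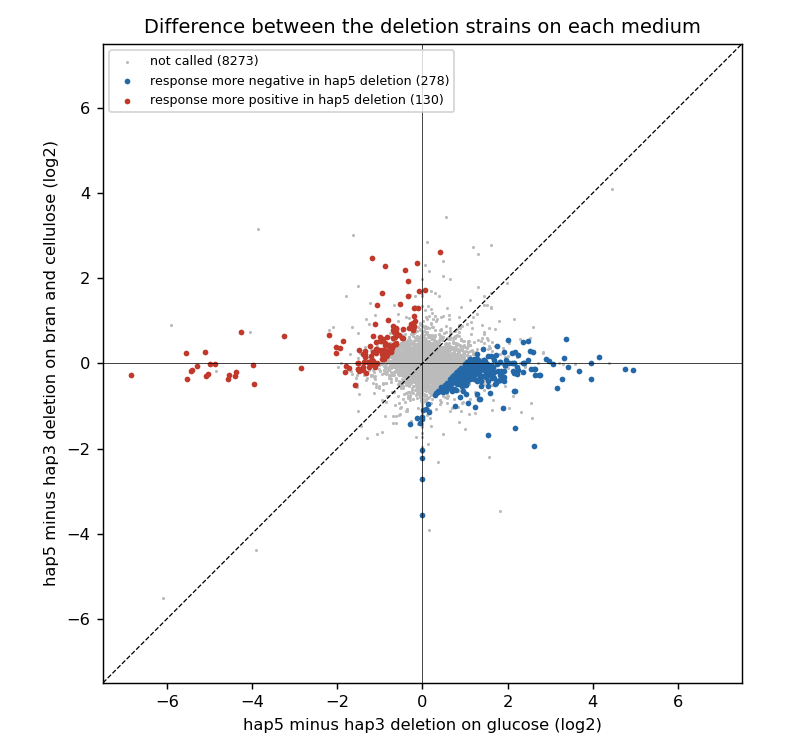
Difference of Δhap5 minus Δhap3 (log2) on glucose (x axis) and on bran and cellulose (y axis) for 8681 tested genes, coloured by the call in the difference in response, with the dashed line marking equal differences. The coloured genes spread along the x axis to -6.84 in the positive group, while most lie near 0 on the y axis. The gene at -6.84 is PDE_09242, listed at 0 in 2 of the 12 deletion libraries.

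Levels in the single libraries followed this pattern. For the 278 negative genes the median level was 8.54, 7.65 and 9.53 FPKM in Δhap3 libraries on glucose and 21.6, 24.9 and 23.5 FPKM in those of Δhap5. With bran and cellulose as carbon source it was 43.4, 41.8 and 37.1 FPKM in Δhap3 and 35.3, 36.2 and 32.4 FPKM in Δhap5. These medians did not overlap between the strains on either medium and lay farther apart on glucose. Values of the strains did not overlap on glucose, with Δhap5 higher, at 248 of the 278 genes, against 21.6% of all tested genes. They did not overlap on bran and cellulose, with Δhap5 lower, at 107 of 278, against 14.4%. These contrasts make up the difference by which the genes were called, so the shares describe the genes and test nothing.

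For the 130 positive genes the median level was 76.9, 99.3 and 75.8 FPKM in Δhap3 on glucose and 28.4, 27.9 and 23.1 FPKM in Δhap5. On bran and cellulose it was 15.7, 24.9 and 24.5 FPKM in Δhap3 and 28.6, 25.8 and 27.9 FPKM in Δhap5. Replicate 2 of Δhap3 on glucose was the highest of its group at 89 of the 130 genes, against 30.2% of all tested genes. Δhap5 was lower without overlap on glucose at 104 of the 130 (9.73% of all genes), and higher without overlap on bran and cellulose at 67 (13.0%).

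**Figure D3:**
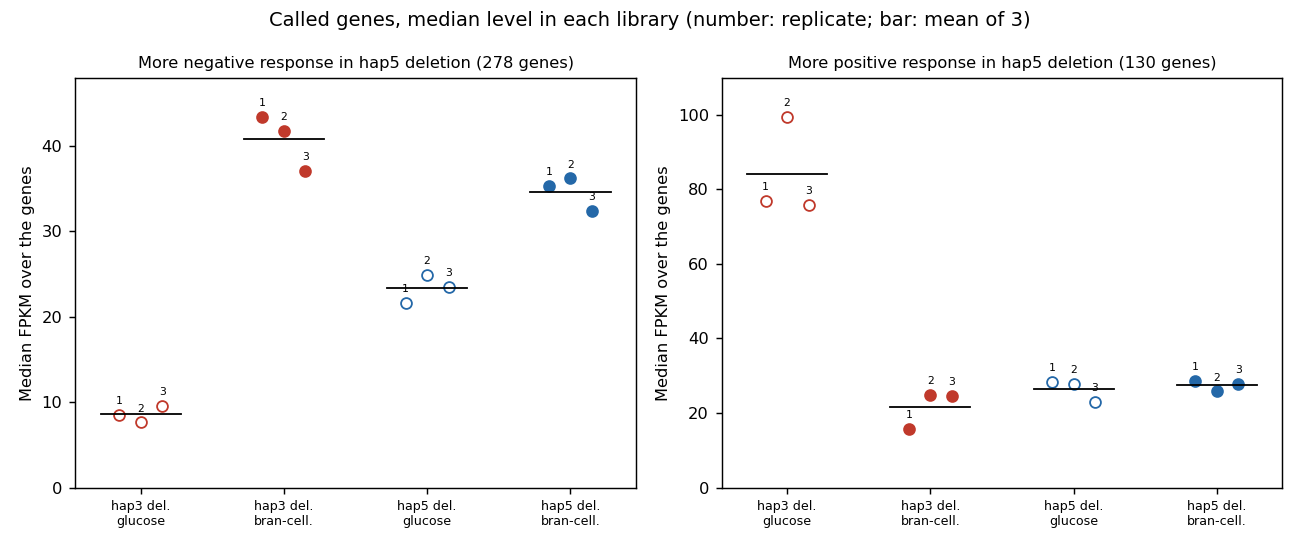
Median FPKM over the 278 genes with a more negative (left) and the 130 genes with a more positive (right) response in Δhap5, in each of the 12 deletion libraries, with the replicate number at each point and a bar at the mean of 3 libraries. On the left Δhap3 on glucose lies between 7.65 and 9.53 FPKM, and on the right it lies between 75.8 and 99.3 FPKM, apart from the other groups in both panels.

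Wild type libraries gave a reference for these levels. They do not enter the value of the difference, but they enter the gene filter and the spread behind its p-values. For the negative genes the median of group means on glucose was 7.12 FPKM in wild type, 8.34 FPKM in Δhap3 and 22.8 FPKM in Δhap5. Δhap5 was called higher than wild type on glucose at 165 of the 278 and lower at 25, against 17.6% and 7.0% of all genes. Δhap3 was called higher at 76 and lower at 66, against 15.3% and 8.74%. For the positive genes the medians on glucose were 25.5 FPKM in wild type, 86.1 FPKM in Δhap3 and 26.3 FPKM in Δhap5.

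In the positive group Δhap3 was called higher than wild type on glucose at 80 of 130 genes and lower at 11, and Δhap5 higher at 41 and lower at 15. So in each group the strain whose median lay farther from wild type on glucose was the one with the higher levels. In the bran and cellulose libraries the medians of the negative genes were 24.4 FPKM in wild type, 42.8 FPKM in Δhap3 and 34.1 FPKM in Δhap5. Those of the positive genes were 61.2, 23.5 and 27.6 FPKM in the same order. Against wild type on that medium, Δhap3 was called higher at 123 and lower at 44 of the negative genes, and Δhap5 at 109 and 52. For the positive genes these counts were 27 and 51 in Δhap3 and 38 and 45 in Δhap5. Over all tested genes 16.7% were higher and 13.4% lower in Δhap3, and 16.4% and 13.2% in Δhap5. Both deletions are set against the same wild type libraries here, and the values are a description. They were taken on the deposited values only and not under the scalings. Over all tested genes the median difference from wild type on glucose was 0.136 in Δhap3 and 0.236 in Δhap5. An offset of this kind favours calls of levels above wild type.

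Wild type itself changed many of these transcripts with the carbon source. Of the 278 negative genes 138 rose and 54 fell in wild type on bran and cellulose, and of the 130 positive genes 53 rose and 38 fell. Over all tested genes 23.2% rose and 13.9% fell. The median wild type response was 1.01 in the negative genes, 0.48 in the positive genes and 0.16 over all genes. In the positive genes the median response was -1.96 in Δhap3, on the other side of 0 from wild type, and -0.08 in Δhap5. The Δhap5 value was near the median of that strain over all tested genes (-0.073), which was 0.003 after median-of-ratios scaling. Its sign is therefore not read. In the negative genes the median response was 1.87 in Δhap3 and 0.36 in Δhap5, with wild type between them.

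Among genes that met the naming rule (all 12 libraries above 0 and a call kept in each fit that left out a library), the largest positive differences were those of PDE_09239 and PDE_03823, both high on glucose in Δhap3. PDE_09239 was at 525.85, 1314.52 and 296.55 FPKM on glucose and 6.08, 100.51 and 65.07 FPKM on bran and cellulose in Δhap3. In Δhap5 it was at 6.68, 28.81 and 10.77 FPKM on glucose and 46.26, 20.94 and 32.92 FPKM on bran and cellulose. It fell by 4.03 in Δhap3, and its change of 1.24 in Δhap5 was not called (limma adjusted p = 0.19). The difference in response was 5.26 (SE 1.12, limma adjusted p = 0.007), and 4.69 without replicate 2 of Δhap3 on glucose. In wild type PDE_09239 rose, from 1.23, 1.4 and 1.24 FPKM on glucose to 747.01, 414.45 and 568.98 FPKM on bran and cellulose.

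PDE_03823 was at 493.85, 698.82 and 327.57 FPKM on glucose in Δhap3 and at 10.38, 12.83 and 7.97 FPKM in Δhap5. With bran and cellulose as carbon source it was at 83.32, 318.86 and 253.73 FPKM and at 211.87, 153.81 and 140.21 FPKM, where the strains overlapped. It rose by 3.90 in Δhap5, while its change of -1.35 in Δhap3 was not called (limma adjusted p = 0.0734). The difference was 5.25 (SE 0.91, limma adjusted p = 0.00202). In wild type it was at 8.19, 0.94 and 17.74 FPKM on glucose and 99.93, 99.62 and 160.59 FPKM on bran and cellulose.

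By the same rule the largest negative differences were those of PDE_08014, described above, and PDE_06017. PDE_06017 was at 113.21, 76.53 and 111.89 FPKM on glucose in Δhap3 and at 1434.9, 1270.62 and 1122.38 FPKM in Δhap5. During growth on bran and cellulose it was at 35.71, 29.58 and 35.18 FPKM and at 27.27, 32.06 and 28.42 FPKM. It fell in both strains, by 1.54 in Δhap3 and by 5.40 in Δhap5, a difference of -3.86 (SE 0.24, limma adjusted p = 1.07e-06). In wild type it rose, from 12.38 to 16.68 FPKM on glucose to 95.92 to 147 FPKM on bran and cellulose.

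A smaller set of genes was called between the strains on bran and cellulose and not on glucose. PDE_05029 was at 658.68, 1160.89 and 721.12 FPKM on glucose in Δhap3 and at 777.46, 497.83 and 704.41 FPKM in Δhap5, which overlapped. On bran and cellulose it was at 12.79, 13.17 and 10.92 FPKM in Δhap3 and at 51.44, 52.92 and 45.19 FPKM in Δhap5, which did not. It fell by 5.95 in Δhap3 and fell by 3.68 in Δhap5, a difference in response of 2.27 (SE 0.31, limma adjusted p = 0.000352). PDE_09894 was at 0.96, 1.32 and 6.87 FPKM on bran and cellulose in Δhap3 and at 8.14, 20.59 and 16.69 FPKM in Δhap5. Its difference was 2.61 (SE 0.67, limma adjusted p = 0.0175), and between 2.18 and 3.24 when single libraries were left out. The 24 genes of this kind were 12 positive and 12 negative; 8 of the positive and 0 of the negative ones met the naming rule.

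PDE_08708 differed on both media in opposite directions. On glucose it was at 652.63, 996.67 and 755.7 FPKM in Δhap3 and lower in Δhap5, at 372.93, 428.54 and 335.67 FPKM. With bran and cellulose as carbon source it was at 54.75, 56.17 and 67.34 FPKM in Δhap3 and higher in Δhap5, at 132.27, 174.77 and 158.69 FPKM. The groups did not overlap on either medium, and the difference in response was 2.43 (SE 0.27, limma adjusted p = 7.91e-05). It fell by 1.78 in wild type, by 3.72 in Δhap3 and by 1.28 in Δhap5.

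**Figure D4:**
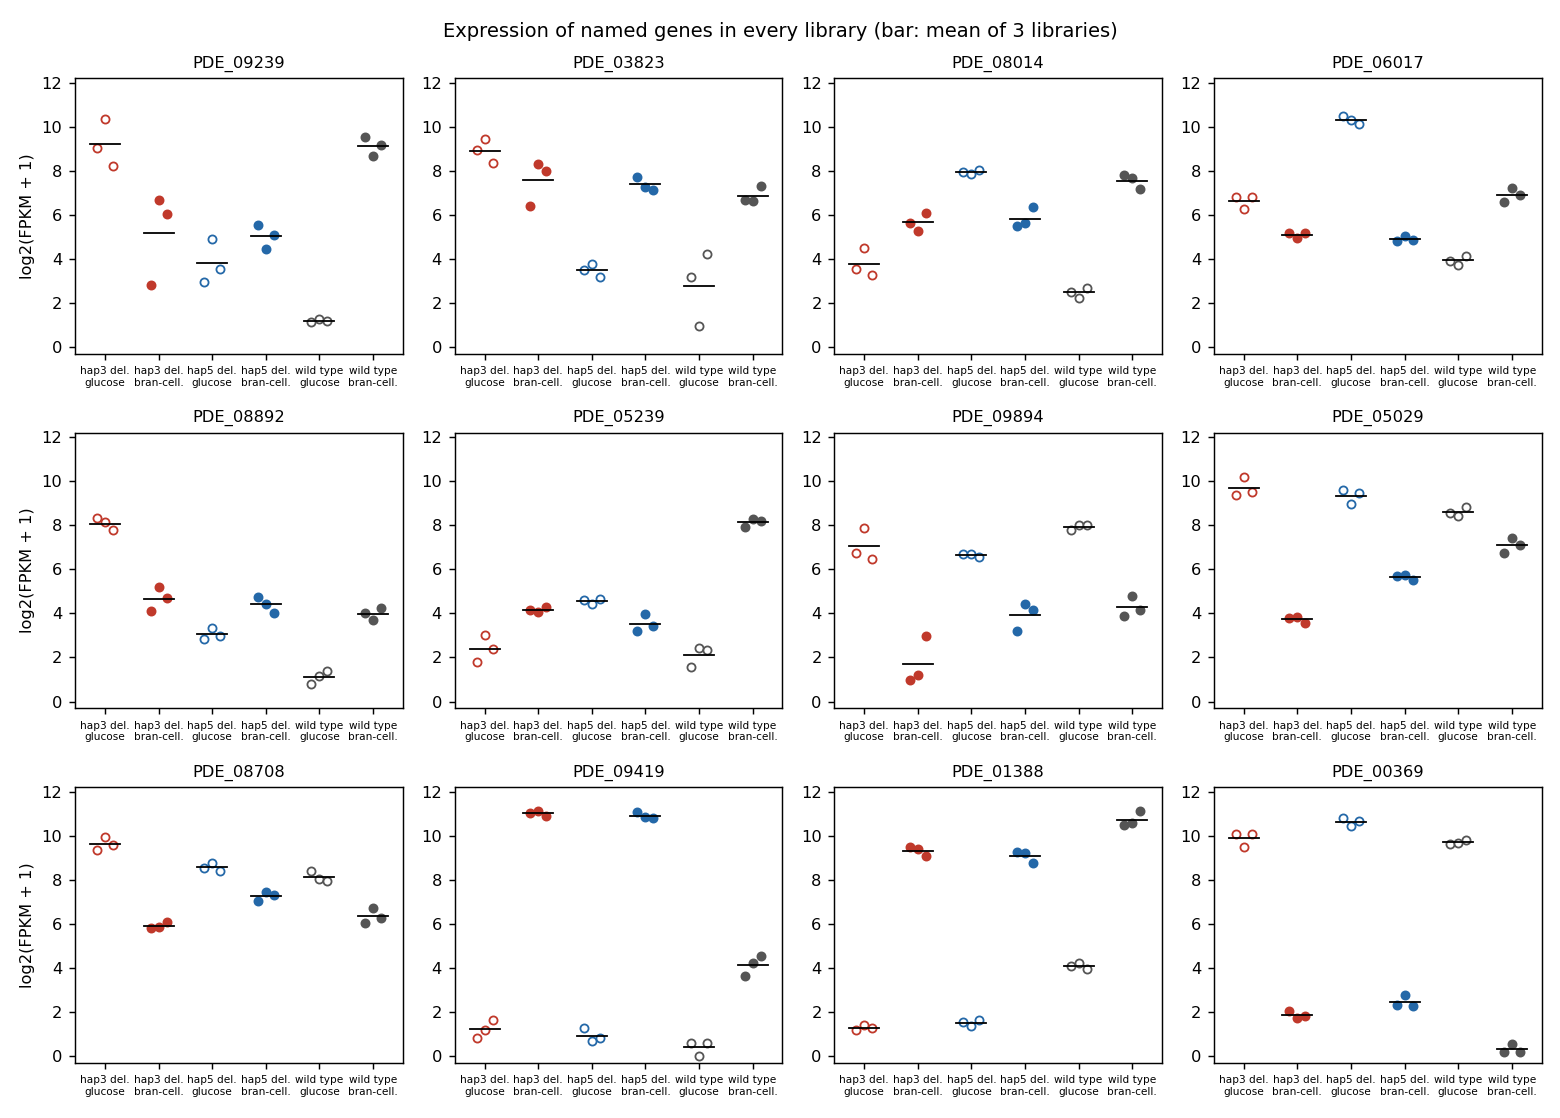
Level of 12 named genes on the log2(FPKM + 1) scale in every library of Δhap3 (red), Δhap5 (blue) and wild type (grey), with open points for glucose, filled points for bran and cellulose and bars for the mean of 3 libraries. PDE_08014 and PDE_08892 change in opposite directions in the deletion strains, while PDE_09419, PDE_01388 and PDE_00369 have differences in response of 0.19, -0.45 and -0.16.

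Abundant transcripts were among those called. A group mean of at least 100 FPKM was reached by 187 of the 408 genes, and one of at least 1000 FPKM by 26. The share of all tested genes at these levels was not counted, so the counts do not show whether abundant genes were called more often. PDE_05095 was at 4574.21, 6154.96 and 4437.32 FPKM on glucose in Δhap3 and at 2596.26, 1566.12 and 1745.7 FPKM in Δhap5, with 194.73 to 241.87 FPKM in all 6 libraries on bran and cellulose. It fell less in Δhap5, by a difference of 1.42 (SE 0.24, limma adjusted p = 0.00161). PDE_01206 fell by 3.37 in Δhap3 and by 2.02 in Δhap5, a difference of 1.35 (SE 0.29, limma adjusted p = 0.00727).

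Among abundant genes with a negative difference, PDE_06715 rose in both strains. It was at 18.37, 32.18 and 16.46 FPKM on glucose in Δhap3 and at 44.17, 97.14 and 59.24 FPKM in Δhap5, and between 2061.36 and 2496.11 FPKM in all 6 libraries on bran and cellulose. The groups did not overlap on glucose, and the difference was -1.69 (SE 0.37, limma adjusted p = 0.00794). PDE_02125 rose by 1.78 in Δhap3, from 519.73, 642.07 and 610.7 FPKM to 1940.03, 2177.42 and 1943.94 FPKM. In Δhap5 it was at 1156.19, 3189.81 and 1763.99 FPKM on glucose and 1776.71, 1913.98 and 1520.58 FPKM on bran and cellulose, which overlapped. The difference was -1.89 (SE 0.39, limma adjusted p = 0.00557).

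Genes listed at 0 in a whole group included some with such a group on glucose in 1 deletion strain only. All 12 libraries were above 0 at 347 of the 408 genes, 32 had a whole group at 0, and 43, in part the same genes, had a group that mixed 0 with higher values. An exact 0 may be a failed estimate, so folds against such groups are left out. PDE_00372 was listed at 0 in all 3 Δhap5 and all 3 wild type libraries on glucose, and at 15.44, 194.07 and 30.97 FPKM in Δhap3. During growth on bran and cellulose it was at 57.73 to 84.75 FPKM in Δhap3, 77.73 to 92.89 FPKM in Δhap5 and 66.4 to 79.83 FPKM in wild type. PDE_09586 was listed at 0 in Δhap5 on glucose and at 12.41, 40.76 and 11.74 FPKM in Δhap3. On bran and cellulose it was at 2.0 to 8.67 FPKM in Δhap3 and 6.54 to 8.22 FPKM in Δhap5. Unlike PDE_00372, it was at 47.07, 46.44 and 37.61 FPKM in wild type on glucose and listed at 0 there on bran and cellulose.

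PDE_08630 was the reverse case. It was listed at 0 in Δhap3 on glucose, and was at 46.06, 10.74 and 34.05 FPKM in Δhap5 and 68.48, 78.69 and 81.04 FPKM in wild type. In the bran and cellulose libraries it reached 340.12 to 381.27 FPKM in Δhap3 and 307.28 to 354.9 FPKM in Δhap5. PDE_02340 was listed at 0 on glucose in both deletions. On bran and cellulose it was at 71.55, 69.05 and 56.64 FPKM in Δhap3 and at 16.57, 15.2 and 13.77 FPKM in Δhap5, a strain difference of -2.04 on that medium (SE 0.11, limma adjusted p = 4.21e-08).

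A minority of called genes had consecutive locus tags, at a rate above the share called over all genes. Of 115 positive genes whose next tag was tested, 30 (26.1%) were followed by another positive gene, where 1.5% of all genes were positive. Of 238 negative genes, 38 (16.0%) were followed by another negative gene, where 3.2% of all were negative. Runs of at least 3 consecutive tags called in the same direction held 23 of the positive genes in 3 runs and 29 of the negative genes in 8 runs. Of those 23 positive genes, 16 lay in the longest run, which therefore also supplied many of the positive pairs. No coordinates of this strain were used, so the distance between these genes is not given.

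The longest run, PDE_09229 to PDE_09244, held 16 positive genes and contains PDE_09239. Its median level was 160, 250 and 97.3 FPKM in Δhap3 on glucose and 4.36, 11.5 and 8.29 FPKM in Δhap5. During growth on bran and cellulose it was 6.29, 43.7 and 28.4 FPKM in Δhap3 and 20.9, 11.7 and 20.4 FPKM in Δhap5, where the strains overlapped. In wild type the median of group means was 0.552 FPKM on glucose, against 158 FPKM on bran and cellulose. Differences in response ran from 1.62 to 6.57, with limma adjusted p values from 0.001 to 0.0252. The 6.57 was that of PDE_09242, which was listed at 0 in 2 of the 12 deletion libraries, so its size depends on the added constant. Of the members with all 12 libraries above 0, PDE_09239 had the largest difference, 5.26. All 16 were called between the strains on glucose and 0 on bran and cellulose, and all 16 calls were kept without replicate 2 of Δhap3 on glucose. Of the 16 calls, 15 were kept in all fits that left out a library, taken jointly.

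The longest negative run, PDE_08904 to PDE_08909, held 6 genes, all kept in every fit that left out a library and under both scalings. Its median level was 2.59, 5.03 and 5.17 FPKM in Δhap3 on glucose and 25.9, 14.2 and 23.1 FPKM in Δhap5. In the bran and cellulose libraries it was 170, 162 and 186 FPKM and 150, 159 and 149 FPKM. Differences in response ran from -2.77 to -1.31, with limma adjusted p values from 1.23e-05 to 0.00101. PDE_08909, the last of the run, had the difference of -1.31. It was listed at 0 on glucose in both strains, so that its difference lay on bran and cellulose.

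**Figure D5:**
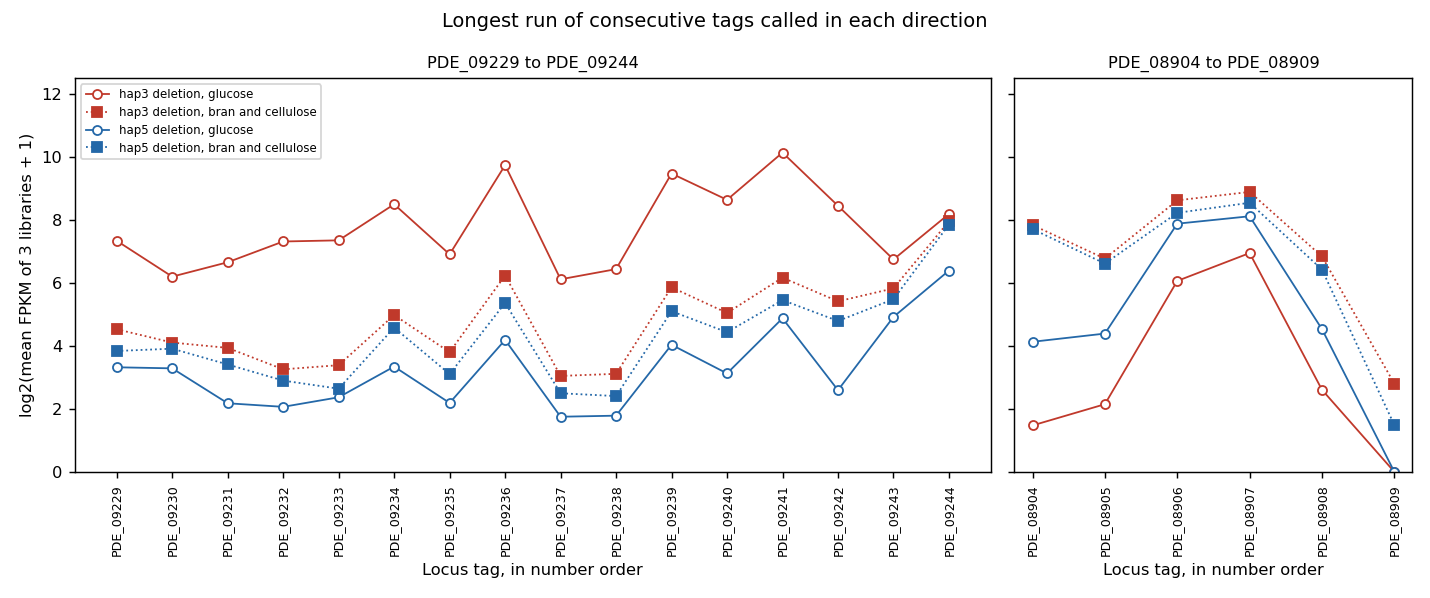
Level (log2 of the mean FPKM of 3 libraries plus 1) of the genes in the longest positive run (left, 16 genes) and the longest negative run (right, 6 genes), in tag order, for Δhap3 (red) and Δhap5 (blue) on glucose (open circles) and on bran and cellulose (filled squares). On the left Δhap3 on glucose lies above the other 3 groups at all 16 genes, and on the right it lies below them at the first 5 genes.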

How the data were processed

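A single table was deposited, and its values are FPKM according to the authors' column names. Per the labels' protocols, cDNA was cut with NlaIII and MmeI into short tags. Division by length may then not fit, which changes levels between genes but not a gene's FPKM ratio between libraries. Through the added constant and the FPKM thresholds it can still change fitted responses of low genes, and which genes were tested or named. For aligner, quantifier, build and strand handling the sources used here give nothing, so near-identical or overlapping genes are uncertain. Each column was assigned through its strain, medium and number, the bran and cellulose columns by elimination; 0 columns were left unmapped. Of 9277 identifiers 0 matched the RefSeq gene table (strain HP7-1, 9964 genes), so no names, functions, sequences or gene lists were used.

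A group-means model of log2(FPKM + 1) used all 18 libraries and was run in limma 3.58.1 (R 4.3.3; moderated variances with an intensity trend), with 1 spread per gene for all groups and Benjamini-Hochberg adjustment within each comparison. Named genes were, per pattern, at most 2 in each direction. They had to be called, with a group mean of at least 10 FPKM, all 12 deletion libraries above 0, and a call kept in each fit that left out a library. They were ranked by size of difference or by level; genes with a group at 0 and genes with near-equal responses had their own rules. The comparison, genes and patterns were chosen with earlier results of these data known. On simulated data for the difference in response (8681 genes), the fit recovered 91% of 100 genes shifted by 1.5 log2 units and 97% of 100 shifted by 3. It made 1 false call among 8481 unshifted genes. The simulated noise was independent between libraries, with 1 spread per gene for all groups. Shifts were placed in Δhap5 on bran and cellulose only, and not at low genes. The simulation held no deviant library, no wider spread on glucose and no scaling shift, so these rates need not hold for the real libraries. No pair of libraries was identical.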

Additional observations from a re-analysis of the deposited data

Results flagged for a closer look

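The carbon response differed between the deletion strains, by the test of the difference itself, at 130 genes with a positive and 278 with a negative value. Of the named genes with all 12 libraries above 0, those with a positive difference (log2, hap5 minus hap3 deletion) were PDE_09239 at 5.26, PDE_03823 at 5.25, PDE_08892 at 4.78, PDE_09894 at 2.61, PDE_08708 at 2.43, PDE_05029 at 2.27, PDE_05095 at 1.42 and PDE_01206 at 1.35. Those with a negative difference were PDE_08014 at -3.99, PDE_06017 at -3.86, PDE_05239 at -2.79, PDE_02125 at -1.89 and PDE_06715 at -1.69. Fitted values of genes with a group at 0 depend on the added constant of 1 and give no fold: 5.79 for PDE_00372, 5.0 for PDE_09586, -4.88 for PDE_08630 and -2.04 for PDE_02340. Each of the 6 groups had 3 libraries, so single outlying libraries were not tested.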

How the results depend on the processing

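All 17 named differences kept their sign and stayed called under each alternative run. The runs included no filter or one at 5 FPKM, a pseudocount of 0.1, both scalings and no intensity trend. They also left out each of the 12 deletion libraries in turn. The naming rule had required a call in every fit that left out a library, so the result of those 12 fits was fixed in advance. Of all 408 calls, 236 were kept in every such fit. PDE_09894 stayed called at a limma adjusted p of 0.0497 in the fit on the 12 deletion libraries alone. Library weights and dropping genes at 0 in only some libraries of a group (122 positive and 255 negative calls) were added after the data were seen. Without a minimum fold, 459 genes were positive and 849 negative, 6096 and 5452 were called between media in the hap3 and hap5 deletions, and 1716 and 188 between strains on glucose and on bran and cellulose. Leaving out single libraries gave 108 to 160 positive and 201 to 359 negative calls, 290 to 453 calls between strains on glucose and 24 to 52 on bran and cellulose. Library weights, which gave replicate 2 of the hap3 deletion on glucose a weight of 0.0698, called 101 genes on bran and cellulose; the cause was not tested. The median difference over all genes, -0.122, was -0.006 after median-of-ratios scaling, 0.012 after quantile normalization and -0.027 with library weights. The near-equal value of PDE_06095 went from -0.24 to 0.32 with a pseudocount of 0.1. Replicate numbers were not taken as pairs: deviations of same-numbered libraries correlated between -0.122 and 0.202, and 8 of 12 libraries correlated best with their own number. With a replicate block, 130 positive and 271 negative genes were called. Unknown depth leaves counting error of low genes unmeasured.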

Other observations

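Runs of negative genes differed between replicates of Δhap5 on glucose. Of the 8 negative runs, replicate 2 had the highest median level in 5 and the lowest in 3. The median level in replicates 1, 2 and 3 was 31.5, 132 and 64.6 FPKM for PDE_00807 to PDE_00809, and 2.29, 13.1 and 4.76 FPKM for PDE_04105 to PDE_04107. It was 11.8, 37.4 and 22.1 FPKM for PDE_10003 to PDE_10005, and 7.89, 19.9 and 11.6 FPKM for PDE_10009 to PDE_10011. In PDE_06303 to PDE_06305 it was 4.3, 10.3 and 7.21 FPKM. Replicate 2 was the lowest in PDE_00021 to PDE_00023 (702, 525 and 575 FPKM), PDE_03413 to PDE_03417 (57.6, 44.1 and 54.1 FPKM) and PDE_08904 to PDE_08909 (25.9, 14.2 and 23.1 FPKM). The median carbon response of the first 4 runs named, in the same order, was 4.6, 5.01, 5.9 and 5.92 in Δhap3, 2.83, 3.48, 4.26 and 4.14 in Δhap5, and 4.07, 4.21, 4.72 and 4.68 in wild type. PDE_10011 was the exception among the members of these 4: it fell in Δhap5 and was not called in the other strains. In each of the 4 runs 2 of 3 members were called in every fit that left out a library.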
